A study of Mus musculus with 14 samples.

Results

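Genes that mark neurons and the cerebellum were followed on spotted cDNA arrays of brain and thymus from mice without miR-34a. The group holds 7 genes, Stmn2, Camk2b, Cntn1, Sncb, Pcp4, Zic1 and Slc1a6, out of 1380 genes with a symbol on the array. They are read by 8 of 20160 probes, because Stmn2 has 2 (MG-8-71o22, called probe A here, and MG-14-138f9, probe B) and the other genes have 1 each. Probes were assigned by the RefSeq accession of the spotted clone, except that of Sncb, which was assigned through an EST listed as a synonym of the gene. The genes were chosen by their known roles in neurons and by their spot intensity and detection in brain against thymus in these same arrays. The low Sncb ratio in thymus was also known, so those values are given as a description, and no p is taken from the fit for them.

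All mutants were males on the C57BL/6 background, aged 17 weeks, with a genotype given as mir-34a minus. There were 3 mutant brains and 4 mutant thymuses, and mice 1 to 3 gave both organs. Each mutant RNA was hybridised on 2 arrays with exchanged dyes, giving 6 brain and 8 thymus arrays. The other channel always held RNA of the same organ pooled from male control mice of the same background and age, so each organ has a single control sample and no spread among controls. The labels list 4 animals per pool, whereas the labelling protocol speaks of 6. RNA was made from whole organs, in which fewer cells of a type and less RNA per cell cannot be told apart.

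Stathmin-2, encoded by Stmn2, binds tubulin and acts in the outgrowth and upkeep of axons. Camk2b encodes the beta subunit of calcium/calmodulin-dependent protein kinase II, a kinase of synapses, and Cntn1 encodes contactin-1, a cell adhesion molecule of axons. Sncb encodes beta-synuclein, a protein of presynaptic terminals. Of the genes tied to the cerebellum, Pcp4 encodes a small calmodulin-binding protein abundant in Purkinje cells, Zic1 a zinc finger transcription factor of granule cells and their precursors, and Slc1a6 the glutamate transporter EAAT4 of Purkinje cells. A microRNA such as miR-34a pairs through its seed with matching sites in mRNAs and lowers the stability or translation of those mRNAs.

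The microRNA missing from the mutants is shown first, with the other mouse microRNAs of the RefSeq table that carry the same seed. The sequences are the mature 5p strands in RefSeq, build GRCm38.p6, written 5′ to 3′ with bases 2 to 8, the seed, in capitals.
mmu-miR-34a-5p (chr4:150068473-150068494, plus strand): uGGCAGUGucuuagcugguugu
mmu-miR-34b-5p (chr9:51103610-51103632, minus strand): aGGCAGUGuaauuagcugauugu
mmu-miR-449a-5p (chr13:113037549-113037570, plus strand): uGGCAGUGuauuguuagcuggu
mmu-miR-449c-5p (chr13:113036008-113036028, plus strand): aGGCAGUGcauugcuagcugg
All 4 have the seed GGCAGUG and differ in the bases outside it. The list is limited to that table and may not hold every mouse microRNA with this seed. None of these microRNAs was measured on the arrays.

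For 6 of the 7 genes, all but Stmn2, RefSeq gave promoter windows of 300 bases, running from 250 bases before to 50 bases after a start site given there for the gene. Of these, Pcp4 and Zic1 are shown because they were brighter in brain, and Slc1a6 because it was not. GC boxes (GGGCGG on either strand) are in capitals, and coordinates are those of GRCm38.p6.
Pcp4 (chr16:96467356-96467655, plus strand): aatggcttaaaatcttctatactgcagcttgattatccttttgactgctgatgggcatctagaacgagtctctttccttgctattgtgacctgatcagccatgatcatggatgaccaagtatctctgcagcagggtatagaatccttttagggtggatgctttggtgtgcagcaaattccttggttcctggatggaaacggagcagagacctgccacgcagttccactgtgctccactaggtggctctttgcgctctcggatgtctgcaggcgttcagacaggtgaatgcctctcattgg
Zic1 (chr9:91365719-91366018, minus strand): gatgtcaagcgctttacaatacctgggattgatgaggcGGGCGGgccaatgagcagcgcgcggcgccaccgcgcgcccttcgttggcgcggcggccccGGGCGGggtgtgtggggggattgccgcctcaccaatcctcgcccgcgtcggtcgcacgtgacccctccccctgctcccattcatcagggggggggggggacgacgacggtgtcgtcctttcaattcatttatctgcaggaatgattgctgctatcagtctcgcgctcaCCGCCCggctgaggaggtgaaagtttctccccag
Slc1a6 (chr10:78780246-78780545, plus strand): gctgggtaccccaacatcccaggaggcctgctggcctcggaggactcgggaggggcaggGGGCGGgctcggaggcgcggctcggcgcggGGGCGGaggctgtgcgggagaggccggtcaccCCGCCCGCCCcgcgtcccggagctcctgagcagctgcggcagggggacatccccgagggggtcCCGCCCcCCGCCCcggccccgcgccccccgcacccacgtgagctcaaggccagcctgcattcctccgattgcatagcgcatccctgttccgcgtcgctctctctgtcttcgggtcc
The windows differ in base composition. That of Pcp4 holds no GC box, 6 CpG dinucleotides and 48.7% G and C, close to the medians of 7 CpG and 52.7% over all 32851 windows. The Zic1 window holds 3 GC boxes, 31 CpG and 65.3% G and C. Slc1a6 has 6 matches to the GC box, some of them overlapping and counted separately, with 32 CpG and 75.7% G and C. A GC box was present in 35.7% of all windows. The E-box CANNTG, which reads the same on both strands and was present in 72.3% of windows, occurred 1 time each in Pcp4 and Zic1 and 2 times in Slc1a6. The TATA box TATAAA, searched on both strands and present in 13.6% of windows, was in none of these 3. These matches describe the letters of the windows alone.

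Signals were modest in both organs. The ratio of foreground to local background of the median spot was 1.45 to 2.36 on brain and 1.10 to 1.70 on thymus arrays in Cy5. In Cy3 that ratio was 1.81 to 2.25 and 1.21 to 2.67. Detection on an array required a spot not flagged in the scanner file. In either channel, its foreground had to lie 2 or more background SDs over the local background median. By that rule a brain array detected 56.2% to 94.4% of its probes and a thymus array 7.75% to 84.9%. Of the thymocyte markers on the array, Satb1 and Cd8a were brighter in every thymus mouse than in any brain mouse, with brain minus thymus differences of -1.69 and -1.08 in log2 intensity, while Cd4 overlapped at -0.14. Several arrays stood apart. Brain array 1 correlated with the other brain arrays at a mean r of 0.546, against 0.639 to 0.696 for the others. Thymus array 6 had the 84.9% detection above, with a mean r of 0.391 to the other thymus arrays and a higher 0.449 to the brain arrays. For thymus array 8 these were 0.482 and 0.483. Thymus array 1 carries the tissue brain in 1 of its labels although its title and its pool name thymus. Its mean r was 0.495 with thymus and 0.450 with brain arrays.

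Spot intensity was taken as the quantile-normalised log2 mean of both channels, averaged over the arrays of a mouse. The value of a brain or thymus mouse therefore mixes its mutant RNA with the control pool shared by that organ. It is not the level of the mutant alone, and the SDs are not a spread among independent animals. The intensity values helped to choose the genes and carry no test, and levels of different probes are not set against each other. Of the 8 probes, 6 had all brain mice above all thymus mice, a pattern that held for 8.22% of all probes; 9.76% of all probes lay the other way. The 6 were both Stmn2 probes, Camk2b, Cntn1, Pcp4 and Zic1. These shares belong to the main setting, and none is given for the alternatives that follow. Without thymus array 6 the same 6 did not overlap, and without thymus array 1 it was 5, as Stmn2 probe B then overlapped with a difference of 0.57; probe B also overlapped without scaling between arrays, with median centring and with flagged spots left out. The probes of Sncb and Slc1a6 overlapped between the organs, so on these arrays the intensities of these 2 go against the label of a brain marker. Their small differences, -0.12 and -0.11, became 0.12 and 0.10 without scaling between arrays, where the median of all probes moved to 0.09. With background subtraction in place of normexp the differences grew to 3.54 for Pcp4, 2 for Stmn2 probe A and 1.90 for Cntn1. They grew to 1.77 for Zic1, 1.75 for Camk2b and 1.20 for Stmn2 probe B. The median brain minus thymus difference was 1.06 over the 8 probes and -0.02 over all 20160 probes, of which the central 95% ran from -0.64 to 0.75.

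**Figure D1:**
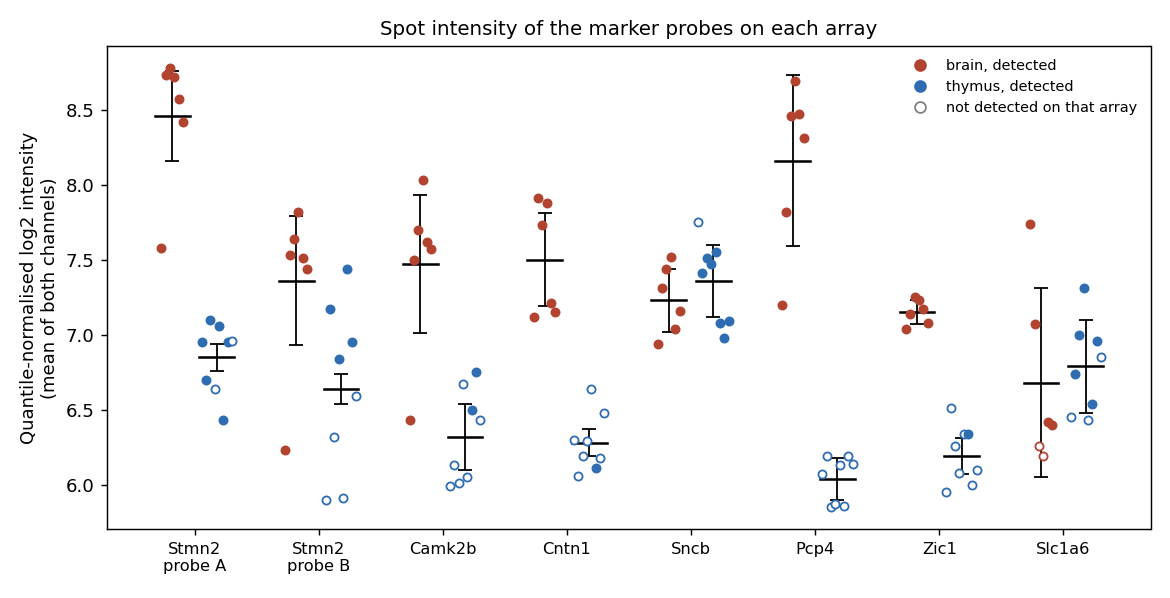
Quantile-normalised log2 spot intensity (vertical axis) of each marker probe on the 6 brain and 8 thymus arrays; open symbols are arrays on which the probe was not detected, and bars give the mean and SD of 3 brain and 4 thymus mice. Pcp4 shows no detected thymus array, and Sncb and Slc1a6 overlap between the organs.

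Among the neuronal genes, Stmn2 probe A stood at 8.15, 8.75 and 8.49 on the brain arrays of mice 1 to 3, both channels averaged. On the thymus arrays of mice 1 to 4 it stood at 6.82, 6.87, 6.74 and 6.95. The means of 8.46 ± 0.30 (SD, n = 3) and 6.85 ± 0.09 (SD, n = 4) differ by 1.62, or 3.07-fold, and the lowest brain lay 1.20 above the highest thymus. Probe A was detected on 6 of 8 thymus arrays, on 4 in the mutant channel and on 3 in the pool channel. Its thymus spots were thus dim, and the fold depends on the background correction. Probe B, which reads the same gene, stood at 6.88, 7.73 and 7.48 in brain and at 6.53, 6.58, 6.68 and 6.77 in thymus. Its difference was 0.72, with detection on 4 of 8 thymus arrays, and its closest mice of the 2 organs were 0.12 apart, so the 2 probes share the direction but not the size. They also parted on thymus array 6, where probe A had its lowest thymus value at 6.43 and probe B its highest at 7.44.

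Camk2b, the kinase subunit, stood at 6.97, 7.86 and 7.59 in brain and at 6.06, 6.34, 6.27 and 6.59 in thymus. The difference of its means, 7.47 ± 0.46 (SD, n = 3) and 6.32 ± 0.22 (SD, n = 4), was 1.16. It was detected on every brain array but on 2 of 8 thymus arrays, so most thymus values lie near background and no fold is given. Brain mouse 1 was the lowest of its brains, as it was for both Stmn2 probes. Cntn1, the adhesion molecule, stood at 7.52, 7.81 and 7.18 in brain and at 6.18, 6.24, 6.38 and 6.33 in thymus. Its difference was 1.22, against thymus values that were detected on 1 of 8 arrays, and here mouse 3 was the lowest brain.

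Sncb was the neuronal gene whose organs overlapped in intensity. Its brains stood at 7.12, 7.48 and 7.10 and its thymuses at 7.58, 7.49, 7.32 and 7.04, with means of 7.23 ± 0.21 (SD, n = 3) and 7.36 ± 0.24 (SD, n = 4). The thymus values reached from below the lowest brain to above the highest. The probe was detected on all 6 brain arrays and on 7 of 8 thymus arrays.

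Among the cerebellar genes, Pcp4 had a brain minus thymus difference of 2.12 as measured, although its thymus spots did not stand above background. The brains stood at 7.51, 8.57 and 8.39 and the thymuses at 6.13, 5.86, 5.99 and 6.17. The means, 8.16 ± 0.57 (SD, n = 3) and 6.04 ± 0.14 (SD, n = 4), lie apart without overlap. Pcp4 was detected on every brain array and on none of the 8 thymus arrays, so its thymus level is not known. For each thymus array the higher of the spot's own value and the lowest signal among detected probes was taken as a floor. Over that floor brain was 2.76-fold higher in the mutant channel and 2.53-fold in the pool channel. Detection depends on the local background of each spot, so the limit of a spot may lie above the floor and these folds are not strict lower limits.

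Zic1, the transcription factor of granule cells, varied least between brains, at 7.09, 7.24 and 7.12. Its thymuses stood at 6.23, 6.17, 6.34 and 6.05, giving means of 7.15 ± 0.08 (SD, n = 3) and 6.19 ± 0.12 (SD, n = 4) and a difference of 0.96. It was detected on 1 thymus array, thymus array 6, and in the pool channel on none, where brain was 1.34-fold higher over the same kind of floor. The fold over that floor in the pool channel was 1.73 for Cntn1, also detected on thymus array 6 alone.

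Slc1a6, the transporter, did not follow the other cerebellar genes. Its brains stood at 7.40, 6.23 and 6.41 and its thymuses at 6.60, 7.16, 6.49 and 6.91. The brain with the highest value, mouse 1, was the one with the lowest Pcp4, Camk2b and Stmn2, and the means of 6.68 ± 0.63 (SD, n = 3) and 6.79 ± 0.31 (SD, n = 4) lie within their spread. Slc1a6 was detected on 4 of 6 brain and 5 of 8 thymus arrays.

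In all, 7 of the 8 probes were detected on all 6 brain arrays, against 28.6% of all probes, and 4 on at least 4 of the 8 thymus arrays, against 31.9%. The 4 were both Stmn2 probes, Sncb and Slc1a6.

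**Figure D2:**
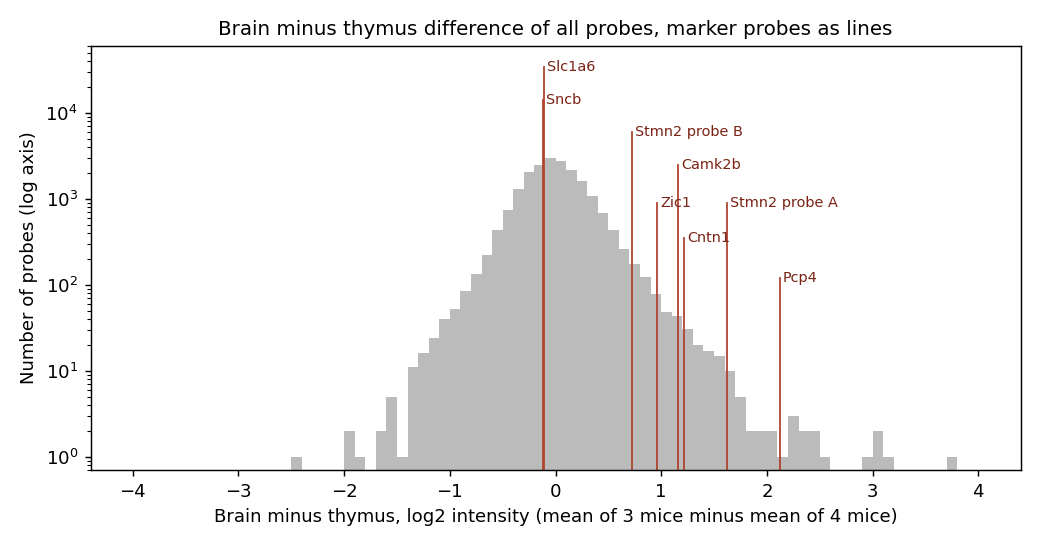
Number of probes (vertical log axis) by brain minus thymus difference in log2 intensity (horizontal axis) for all 20160 probes, with the marker probes as labelled lines whose height carries no value. Pcp4 at 2.12 and Stmn2 probe A at 1.62 lie in the upper tail, and Sncb at -0.12 and Slc1a6 at -0.11 near the middle.

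The intensity pattern was present in each channel. In the mutant channel the brain minus thymus difference was 1.75 for Stmn2 probe A, 2.24 for Pcp4 and 0.95 for Zic1. In the pool channel, which held only control RNA, it was 1.53, 2.02 and 0.96 for the same probes. Sncb stood at 0.02 and -0.22 in these channels and Slc1a6 at -0.03 and -0.16. In each channel alone, the same 6 probes had all brain values above all thymus values when arrays were averaged by mouse. In the pool channel these values are repeat hybridisations of 1 control sample per organ, not separate animals. The share of all probes with this pattern in a single channel is not given.

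On brain array 1, which carried the mutant RNA of mouse 1 in Cy3, all 8 probes lay outside the range of the other 5 brain arrays, 7 below it and Slc1a6 above it. Stmn2 probe A stood at 7.58, against 8.42 to 8.78 on the other 5, and probe B at 6.23 against 7.44 to 7.82. Camk2b stood at 6.43 against 7.50 to 8.03 and Pcp4 at 7.20 against 7.82 to 8.69. Slc1a6 went the other way, at 7.74 against 6.19 to 7.07. The pool channel of this array shared the shift, with Stmn2 probe A at 7.56 (8.12 to 8.85 elsewhere), Camk2b at 6.52 (7.43 to 7.98) and Slc1a6 at 7.58 (5.90 to 7.22), although the labels give the same pool for all brain arrays. Over all probes, 47.6% lay outside the range of the other brain arrays on array 1, against 23.4% to 39.9% on the others. Which feature of this array set these values was not tested. Without it the same 6 probes did not overlap, the differences were 2.23 for Pcp4, 1.81 for Stmn2 probe A and 1.34 for Camk2b, and Slc1a6 moved to -0.22.

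**Figure D3:**
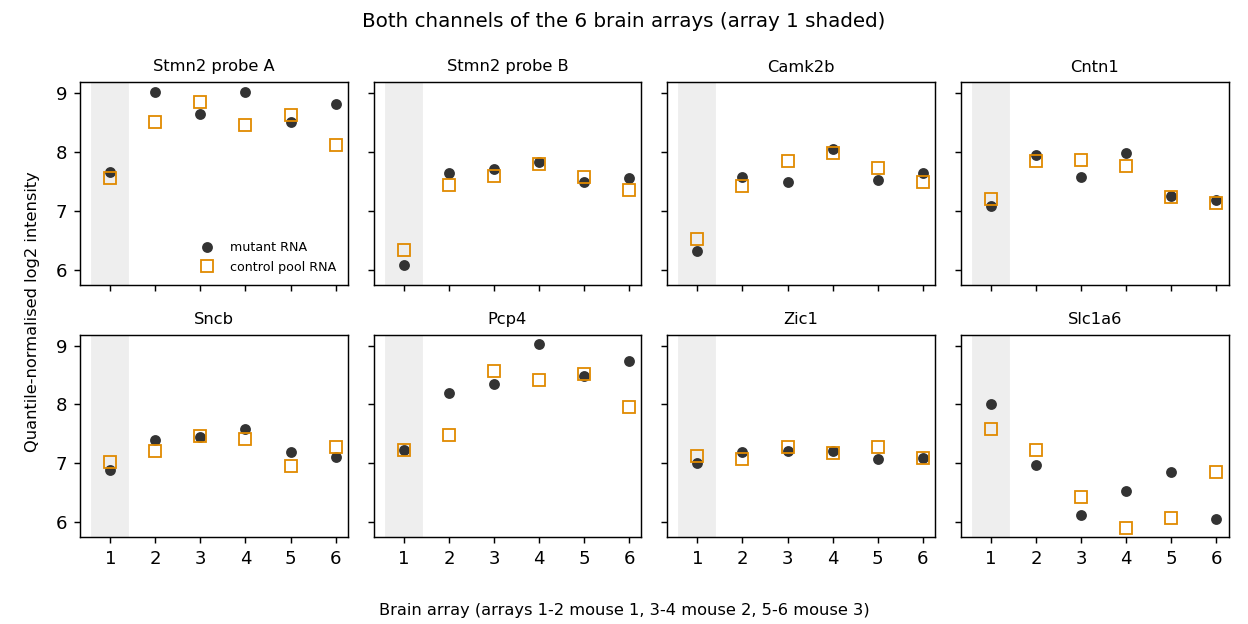
Log2 intensity (vertical axis) of each marker probe in the mutant channel (filled circles) and the control pool channel (open squares) on brain arrays 1 to 6 (horizontal axis). On the shaded array 1 both channels are low for the Stmn2 probes, Camk2b and Pcp4 and high for Slc1a6.

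Correlations of log2 intensity over arrays are given as descriptions, since arrays share the organ, the pool and the slide design. Over the 6 brain arrays Slc1a6 ran against Pcp4 at r = -0.99 and against Camk2b at r = -0.93, and the 2 Stmn2 probes ran together at r = 0.98. The 6 include brain array 1, on which all 8 probes lay outside the range of the others. Correlations without that array are not given. Over all 14 arrays the Stmn2 probes correlated at 0.59, and Stmn2 probe A with Pcp4 at 0.97. Among 1238 other genes with a symbol and detection on a share of 0.5 or more of the arrays of an organ, those most like each probe over the 14 arrays were taken. Stmn2 probe A was closest to Fto (0.96), then to Prkar1b, a regulatory subunit of protein kinase A (0.94). Pcp4 was closest to Fam110b (0.96), then to Prkar1b (0.95). Stmn2 probe B was closest to Vtn (0.92) and Fstl1 (0.82). Syp, the synaptic vesicle protein synaptophysin, followed Camk2b at 0.93, after Tppp at 0.94, and Nap1l5 was closest to Cntn1 (0.92) and to Zic1 (0.94). Slc1a6 was closest to Ccna1 at 0.83 and Sncb to Nsg2 at 0.81.

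Other genes of the same kinds show how the array covers them. Of 37 further neuron markers listed, 5 had a named probe. Syt1, a calcium sensor of synaptic vesicles, was higher in brain by 1.37, Syp by 1.15 and the secretory granule protein gene Scg3 by 0.92, each without overlap of mice. Slc17a7, a vesicular glutamate transporter, stood at -0.34 and Syn1, synapsin I, at -0.66, and both overlapped; without scaling between arrays they stood at -0.01 and -0.49. Of 28 further cerebellar markers only Reln, the extracellular protein reelin, was on the array, at -0.17 with overlap, and at 0.02 without scaling between arrays. The relatives of these genes on the array, Slc1a4 and Sncg, stood at 0.08 and 0.05 with overlap, and a further Slc1a4 probe at -0.37. Camkk1, a kinase of the calmodulin pathway, was higher in brain by 0.35 without overlap. Of the glial genes on the array, Tppp, an oligodendrocyte marker, was higher in brain by 0.81 without overlap. The astrocyte marker Ntsr2 and the oligodendrocyte markers Olig1 and Olig2 differed by 0.03, -0.10 and 0.06, with overlap, and Olig1 stood at 0.02 without scaling. Of the microglia markers, Aif1 stood at -0.52, lower in brain without overlap, and Csf1r and C1qa stood at -0.46 and -0.19 with overlap.

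The comparison the study was built on is mutant against control in each organ. Ratios are log2 mutant over pool, with the dye-swapped arrays of a mouse averaged, and were tested against 0 with limma over all tested probes. In brain all 8 marker probes were tested, none passed an adjusted p of 0.05, 2 had an unadjusted p under 0.05, and their means ran from -0.09 to 0.22. Over all 17586 tested probes 0 passed (0%), and 785 had an unadjusted p under 0.05. The median ratio of the marker probes was 0.05, against 0.000899 over all tested probes, of which the central 95% lay between -0.19 and 0.19. Of the 8 marker means 5 lay above 0. With a median so near 0, about as many of all tested probes lay above 0 as below.

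Pcp4 had the largest ratio of the group. The mice stood at 0.33, 0.07 and 0.27, all above 0, with a mean of 0.22 ± 0.14 (SD, n = 3) and a 95% interval of 0.05 to 0.39. The limma p of 0.0194 became 0.846 after adjustment. By dye, the ratio averaged 0.05 with the mutant in Cy3 and 0.39 with the mutant in Cy5, and single arrays ran from -0.03 to 0.61. In each of the 3 mice the Cy5 array gave the higher value.

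Slc1a6 had mouse values of 0.11, 0.20 and 0.12, a narrow set, with a mean of 0.14 ± 0.05 (SD, n = 3), a limma p of 0.0413 and an adjusted p of 0.846. The single arrays were far wider, at 0.46, -0.25, -0.21, 0.60, 0.94 and -0.71 for arrays 1 to 6. The arrays of a mouse differed by 0.71, -0.81 and 1.65 (Cy3 minus Cy5), a mean size of 1.05 that exceeded that of 98.2% of 15608 probes, for which the median was 0.30. The mouse SD of 0.05 therefore stands beside an SD of 0.62 among the 6 arrays. Its spot was detected on neither array of mouse 2.

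The neuronal genes lay closer to 0. Stmn2 probe A stood at 0.14, 0.03 and 0.14, with a mean of 0.10 ± 0.06 (SD, n = 3), and probe B at -0.02, 0.03 and 0.07, with a mean of 0.03 ± 0.05 (SD, n = 3). The limma intervals of -0.03 to 0.24 and -0.11 to 0.16 overlap widely for these 2 probes of 1 gene. Camk2b stood at -0.02, -0.20 and -0.05, the only gene with all 3 mice below 0, with a mean of -0.09 ± 0.09 (SD, n = 3) and an interval of -0.24 to 0.06. Its adjusted p was 0.846 in limma. By dye it averaged -0.20 with the mutant in Cy3 and 0.02 in Cy5.

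Cntn1 stood at -0.06, -0.04 and 0.07 and Zic1 at 0.04, 0.01 and -0.09, each with a mean of -0.01 ± 0.07 (SD, n = 3) and a limma interval of -0.15 to 0.13. Sncb stood at 0.07, 0.06 and 0.10, with a mean of 0.08 ± 0.02 (SD, n = 3) and an adjusted p of 0.846 in limma, while its single arrays ran from -0.23 to 0.43. These intervals are not adjusted for the number of probes. They give the range of means that the 3 mice allow and do not show how small a difference could have been called.

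Signs were counted as well. All 3 mice had 1 sign for 5 of the 8 probes, 4 above 0 (Stmn2 probe A, Sncb, Pcp4 and Slc1a6) and 1 below (Camk2b), against 27.9% of the 15608 probes with values on all 6 brain arrays. None of the 8 kept 1 sign on all 6 brain arrays, which 1.44% of the same 15608 did. Ratios of brain array 1 entered only through mouse 1, and without that mouse the Pcp4 mean was 0.17 and that of Slc1a6 0.16.

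**Figure D4:**
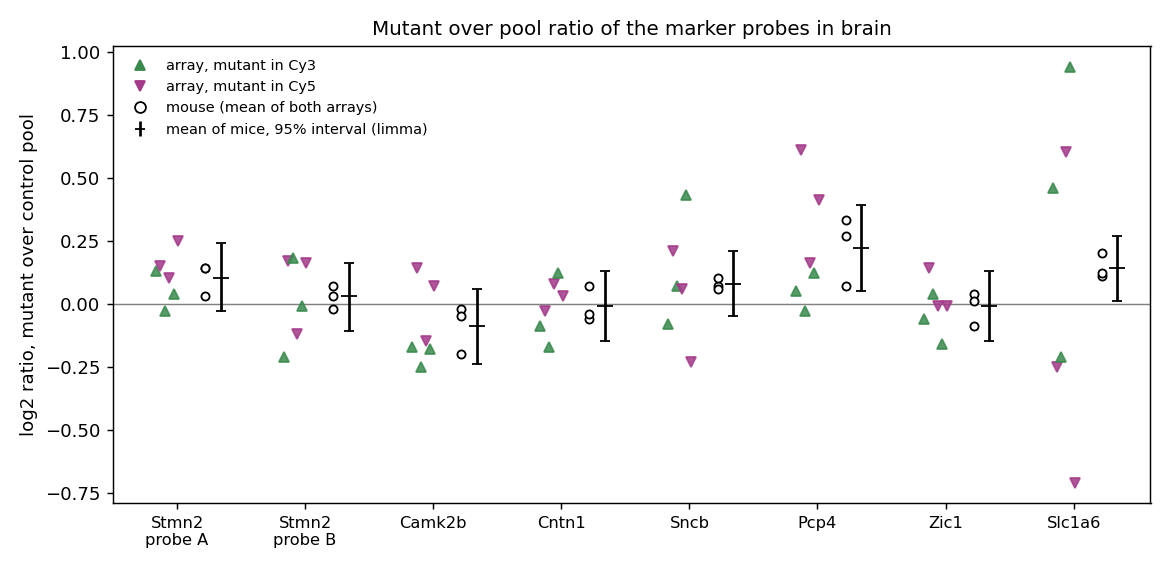
Log2 ratio of mutant over control pool in brain (vertical axis) for each marker probe: triangles are the 6 arrays by the dye of the mutant RNA, open circles the 3 mice, and bars the mean with its 95% limma interval. The Slc1a6 arrays spread from -0.71 to 0.94 around close mouse values, and the Pcp4 arrays lie higher with the mutant in Cy5.

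In thymus only Stmn2 probe A and Sncb gave values in enough mice. The other 6 probes had a ratio in at most 1 mouse, since their spots carried a flag and gave no ratio on 3 to 6 of the 8 arrays. Stmn2 probe A stood at 0.15, 0.37, -0.10 and -0.10 in mice 1 to 4, with a mean of 0.08 ± 0.22 (SD, n = 4) and an adjusted p of 0.903 in limma. Its 2 mice above 0 rest on the Cy5 arrays, at 0.43 and 0.78, whose Cy3 partners were at -0.12 and -0.05. The probe was not detected on the array at 0.78, nor on the Cy5 array of mouse 4. Over the 5321 probes tested in thymus 0 passed (0%), and 267 had an unadjusted p under 0.05.

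Sncb, selected with these values known, stood at -0.04, -0.37, -0.08 and -0.26 in the thymus of mice 1 to 4, a mean of -0.19 ± 0.16 (SD, n = 4). All 8 single arrays lay below 0, from -0.676 to -0.00345, with means of -0.14 with the mutant in Cy3 and -0.24 in Cy5. Among 1813 probes with values on all 8 thymus arrays, 1.21% kept 1 sign on all of them. The array at -0.676 belongs to mouse 2, whose other array stood at -0.0693.

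**Figure D5:**
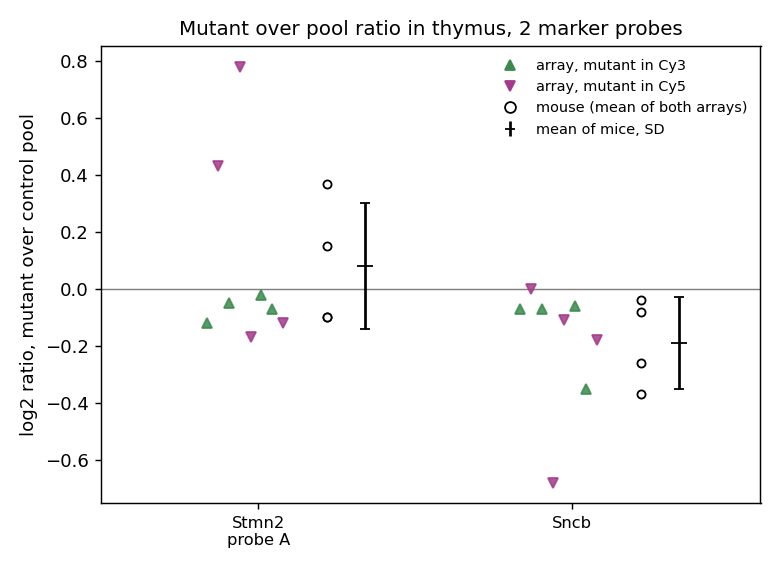
Log2 ratio of mutant over control pool in thymus (vertical axis) for the 2 marker probes with values in 4 mice; symbols as triangles for the 8 arrays by mutant dye, open circles for mice and bars for the mean and SD of 4 mice. The Sncb arrays lie below 0, and Stmn2 probe A has 2 Cy5 arrays well above the rest.

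Between the organs, the Sncb ratio was 0.08 in brain and -0.19 in thymus, a difference of 0.27, with all 3 brain mice above 0 and all 4 thymus mice below. Of 1747 probes with a ratio in all 7 mouse samples, 1.66% showed that arrangement. As the thymus values took part in choosing the gene, this difference is a description, and its p from the fit is not used. Stmn2 probe A had ratios of 0.10 and 0.08, a difference of 0.02 with an adjusted p of 0.965 in limma. Over the 5160 probes tested in both organs 0 passed (0%), and 355 had an unadjusted p under 0.05.

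The further neuron markers gave the same count for the mutant ratio. All 5 were tested in brain and 0 passed in limma, with means from -0.01 (Scg3) to 0.13 (Syp and Slc17a7). Reln, Slc1a4, Sncg and Camkk1 stood at 0.05, 0.02, -0.01 and 0.17 in brain, and none of these 4 passed. None of the 9 had an unadjusted p under 0.05.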

How the data were processed

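Per the file headers, the deposited scanner files give raw spot intensity (foreground and local background, red read as Cy5 and green as Cy3) for 20205 spots of 20160 probes. The scanner software is not given here. The authors' deposited value table, handled as a score because its scale is unstated, matched log2 ratios of background-subtracted foreground medians plus 1 constant per array, within 0.01 in 99.7% to 99.9% of rows. Its column medians run from -1.38 to 0.865, the origin of the constants is unknown, and it served only as an alternative.

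In R 4.3.3 with limma 3.58.1 (statmod 1.5.0), normexp with offset 50 was applied to foreground means, followed by loess within arrays (span 0.3) without flagged spots (flag -50). Ratios were turned to mutant over pool by the labels' dyes, and a mouse needed values on both arrays. Tested probes had detection on 0.5 or more of an organ's arrays and values in 2 or more mice. limma's lmFit and eBayes tested mouse values against 0, and brain against thymus without a block, with Benjamini-Hochberg adjustment. Mice are the replicates, with each pool as 1 control sample. For intensity, flagged spots were kept, because flags mark dim spots (median Cy5 foreground 1.09 times background, against 1.61 for other spots). Leaving them out is an alternative added later, as is leaving out brain array 1.

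Probes were named through RefSeq (GRCm38.p6), 961 by accession and 492 by a synonym, and 1380 genes were named. By the labels, mice 1 to 3 gave both organs. The identifiers of 2 mice have exchanged digits in the scan names, and the labels were used. The correlation of deviations across probes between the organs of these mice was 0.000446, -0.0141 and 0.00265, against a mean of 0.00116 for unequal mice. These values do not bear out the pairs. The members and lists were chosen with earlier results of these data known. The text names all members, genes of the lists, and for likeness the closest 2 genes per probe, of which some are printed. The procedure was also run on these arrays with known factors put on the mutant signal of a sample of probes. The outcome of that run is not given here.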

Additional observations from a re-analysis of the deposited data

Results flagged for a closer look

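On brain array 1 the intensity of Stmn2 probe A (7.58), Stmn2 probe B (6.23) and Camk2b (6.43) lay below the other 5 brain arrays by a gap that passes Dixon's critical value for 6 values. These 3 were among 36 sets of values examined, 26 of arrays and 10 of mice, of which chance marks about 1 in 20. Intensity took part in choosing the genes, so this describes the array and supports nothing about the genes. All 3 come from the same array, which is also low for Pcp4 and high for Slc1a6 and stands apart over all probes.

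The Sncb ratio was above 0 in all 3 brain mice and below 0 in all 4 thymus mice, a difference of 0.27 on the log2 scale. The gene was chosen with its thymus ratios known, so the difference is a description, and no p is taken from the fit for it.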

How the results depend on the processing

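No marker probe passed the ratio test under any alternative run, and the smallest adjusted p was 0.307 (limma, Pcp4 in brain with the mutant in Cy5 only). The Pcp4 brain ratio stayed above 0, from 0.05 to 0.44. Those of Stmn2 probe A and Sncb also stayed above 0. The brain ratio of Slc1a6 ran from -0.12 to 0.40 and changed sign in 1 of 15 settings, that of Camk2b from -0.20 to 0.11 in 3, that of Stmn2 probe B from -0.20 to 0.23 in 4, that of Zic1 from -0.06 to 0.04 in 4 and that of Cntn1 from -0.05 to 0.20 in 7. Over all probes in place of 0, 1 passed in brain with the foreground median and 1 with the mutant in Cy5 only, and 1 passed in the difference between organs with the foreground median. Leaving out each mouse gave 0 to 1 in brain and 0 to 1 in thymus, each 1 arising without mouse 2. With the mouse as a replicate block the difference between organs gave 0 calls, and the Sncb difference was 0.24, against 0.27 without it. It changed no call.

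The probes whose organs did not overlap in intensity numbered 5 or 6 under every alternative. Where they numbered 5, it was Stmn2 probe B that overlapped: with no scaling between arrays, with median centring, without thymus array 1, and with flagged spots left out. The share of all probes without overlap is given for the main setting alone, so the counts under the alternatives cannot be set against the whole array. Detection depended on the threshold. With 3 background SDs 1 probe (Sncb) was detected on at least 4 of 8 thymus arrays, and with both channels required 0 were, while 4 were detected on all 6 brain arrays. The shares of all probes under these stricter rules are not given, so these counts cannot be set against the whole array. The intensity difference ran from 1.85 to 3.54 for Pcp4, 1.48 to 2.08 for Stmn2 probe A, 1.06 to 1.90 for Cntn1, 0.97 to 1.75 for Camk2b, 0.89 to 1.77 for Zic1 and 0.52 to 1.20 for Stmn2 probe B. It ran from -0.23 to 0.14 for Sncb and from -0.53 to 0.25 for Slc1a6. Low signal over background limits the thymus ratios, where 6 probes had a value in at most 1 mouse.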
